A study of Mus musculus with 22 samples.

Results

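The regions described here are the H3K4me3 peaks that were called in mouse embryonic stem cells with a gene trap in Mtf2, overlapped no H3K4me3 peak of wild-type cells, and lay away from promoters. A peak qualified when it shared not a single base with a wild-type H3K4me3 peak or with the window of 1 kb on either side of a protein-coding transcription start site (TSS). Of the 26960 H3K4me3 peaks listed for gene-trap cells, 4118 met this rule. They are called gene-trap-only peaks below. The members were selected on the positions of peaks in both H3K4me3 lists. The number of these peaks and the lack of a called wild-type peak over them are thus the choice, not a result. The lists hold no counts, so a place without a called wild-type peak may still carry some H3K4me3 in wild-type cells. Without regard to promoters, 16.6% of the gene-trap H3K4me3 peaks had no wild-type peak over them. Among the 13227 gene-trap peaks away from promoters that share was 31.1%.

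The wild-type cells were the E14 line and carry no listed mutation. The gene-trap cells are named Mtf2 GT/GT, and a trapping cassette interrupts the coding sequence of Mtf2 in them. Both were grown in serum with LIF and profiled by chromatin immunoprecipitation and sequencing, with 2 libraries behind each peak list. The gene-trap libraries also carry the words E14 mESC in their descriptions, while their cell line field reads Mtf2 GT/GT. The labels do not otherwise say from which line these cells were made or whether they are 1 clone, so genotype and line cannot be told apart. MTF2 binding in the gene-trap cells was not analysed here, and the loss of the protein was not checked. The H3K4me3 lists fit the labelled cell type, with a promoter peak at 12 of 12 stem cell markers, such as Pou5f1, Nanog and Sox2, in each of them.

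Trimethylation of histone H3 at lysine 4 (H3K4me3) is laid down by the SET1 and MLL enzymes, mostly at active or poised promoters and at stretches rich in unmethylated CpG. Polycomb repressive complex 2 (PRC2), with EZH2 as its catalytic subunit, trimethylates lysine 27 (H3K27me3) around silent developmental genes. MTF2 is a Polycomb-like partner that helps PRC2 to bind CpG-rich DNA. In stem cells many developmental promoters carry both marks at once and are called bivalent.

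The sequences of the gene-trap-only peaks ranged from a large family of repeats to single-copy DNA, and examples are printed first. Each is the central 300 bases of a peak, read from GRCm38 in the strand given, in lower case with every CG in capitals. The first pair are peaks with most look-alikes in the largest family of repeats among the gene-trap-only peaks, each named for its nearest protein-coding gene. One is 301 kb from the TSS of Cdh19, on chr1:111278546-111278845 (plus strand, 13 CG). The other is 10.4 kb from that of Zfp114, on chr7:24164508-24164807 (minus strand, 17 CG). They share 129 of the distinct 15-base words of the first. The one beside them, 146 kb from the TSS of Plcb4 on chr2:135596040-135596339 (plus strand, 18 CG), comes from a wild-type-only peak. It stands for another family, described below.
Cdh19: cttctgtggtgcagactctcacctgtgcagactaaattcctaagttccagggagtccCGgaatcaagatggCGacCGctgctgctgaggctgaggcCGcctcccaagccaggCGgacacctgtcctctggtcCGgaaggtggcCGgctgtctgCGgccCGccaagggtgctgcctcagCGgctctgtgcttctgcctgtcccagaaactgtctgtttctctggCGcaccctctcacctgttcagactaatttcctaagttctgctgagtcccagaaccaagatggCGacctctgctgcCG
Zfp114: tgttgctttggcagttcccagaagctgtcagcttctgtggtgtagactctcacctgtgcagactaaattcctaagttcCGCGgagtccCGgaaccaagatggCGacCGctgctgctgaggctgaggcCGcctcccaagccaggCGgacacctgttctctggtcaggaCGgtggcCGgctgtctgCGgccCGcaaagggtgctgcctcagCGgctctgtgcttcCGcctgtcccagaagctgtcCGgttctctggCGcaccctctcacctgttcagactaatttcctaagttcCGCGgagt
Plcb4: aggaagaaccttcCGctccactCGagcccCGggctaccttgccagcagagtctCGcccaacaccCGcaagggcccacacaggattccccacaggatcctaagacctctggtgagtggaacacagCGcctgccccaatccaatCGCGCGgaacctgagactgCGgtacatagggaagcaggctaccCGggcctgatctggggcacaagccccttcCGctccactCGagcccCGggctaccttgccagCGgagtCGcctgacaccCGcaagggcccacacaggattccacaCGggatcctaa

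The next pair come from gene-trap-only peaks that overlap a called MTF2 peak of wild-type cells. The one in the non-coding gene Gm26917 (nearest protein-coding gene Esp38) on chr17:39845824-39846123 is from one of the widest peaks with MTF2, and has 36 CG. It does not stand for such peaks in general, and whether copies left out of the assembly contributed to its overlaps was not tested. In the central 500 bp, the 137 gene-trap-only peaks with H3K27me3 and MTF2 had a median of 4.4 CpG per 100 bp. The one in an exon of Osr1, a zinc-finger regulator of kidney and heart development, on chr12:9580672-9580971 has 14 CG. Both are on the plus strand.
Gm26917: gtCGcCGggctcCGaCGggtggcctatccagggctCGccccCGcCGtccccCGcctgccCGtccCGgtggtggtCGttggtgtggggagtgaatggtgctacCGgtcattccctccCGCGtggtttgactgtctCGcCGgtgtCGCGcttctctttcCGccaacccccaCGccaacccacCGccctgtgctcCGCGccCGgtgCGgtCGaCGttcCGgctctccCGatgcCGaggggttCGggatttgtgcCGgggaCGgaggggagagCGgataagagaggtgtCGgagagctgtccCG
Osr1: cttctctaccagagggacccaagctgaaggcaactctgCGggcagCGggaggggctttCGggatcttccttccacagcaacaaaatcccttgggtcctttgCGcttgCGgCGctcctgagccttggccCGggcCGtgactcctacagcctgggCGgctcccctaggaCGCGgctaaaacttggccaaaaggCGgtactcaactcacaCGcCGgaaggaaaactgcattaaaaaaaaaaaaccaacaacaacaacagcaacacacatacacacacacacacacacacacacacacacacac

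The last 3 are from the widest peaks of all and from one of the widest that lie in H3K27me3 without MTF2. The peak near Klhdc4 (chr8:121837716-121838015, 4 CG) and the peak in an intron of Wiz (chr17:32372805-32373104, no CG) are the widest of all. The peak near H2afy (chr13:56141086-56141385, no CG) lies partly in H3K27me3. All are on the plus strand.
Klhdc4: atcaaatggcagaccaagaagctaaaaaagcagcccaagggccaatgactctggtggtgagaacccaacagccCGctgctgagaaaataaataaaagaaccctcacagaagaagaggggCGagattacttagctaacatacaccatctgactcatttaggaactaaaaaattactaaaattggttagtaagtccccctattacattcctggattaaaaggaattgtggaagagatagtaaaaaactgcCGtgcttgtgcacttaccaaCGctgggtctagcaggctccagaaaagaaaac
Wiz: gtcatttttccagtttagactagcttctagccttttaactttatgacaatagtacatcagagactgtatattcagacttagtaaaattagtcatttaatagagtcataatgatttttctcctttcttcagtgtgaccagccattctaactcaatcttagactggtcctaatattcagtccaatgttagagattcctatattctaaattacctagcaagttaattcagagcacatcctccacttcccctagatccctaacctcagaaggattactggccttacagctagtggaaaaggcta
H2afy: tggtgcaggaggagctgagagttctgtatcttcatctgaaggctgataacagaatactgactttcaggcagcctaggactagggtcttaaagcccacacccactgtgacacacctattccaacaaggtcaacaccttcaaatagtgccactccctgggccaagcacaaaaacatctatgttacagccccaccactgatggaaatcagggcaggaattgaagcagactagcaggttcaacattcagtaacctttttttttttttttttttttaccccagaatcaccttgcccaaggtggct

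Gene-trap-only peaks were set beside the other peaks away from promoters. These were 9109 gene-trap peaks that overlapped a wild-type peak (shared peaks) and 4865 wild-type peaks without a gene-trap peak (wild-type-only peaks). Each list stands for its group as a whole, so the spread between replicates could not be measured and no test between cultures was made. Ranges in brackets after a percentage are exact Clopper-Pearson 95% intervals and cover counting error over regions only. Peak lists hold no counts, so depth is unknown, and in chromatin from many cells a mark on more cells and more of it per cell cannot be told apart. Nearby or look-alike peaks are not independent of each other, which makes these intervals too narrow.

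About 1 in 3 gene-trap-only peaks belonged to a single family of repeated sequence, a share that depends on the limit of likeness given below. Peaks were joined when the central 300 bases of both shared at least 40 of their 286 words of 15 bases, on either strand. Sequence was read for the 4113 gene-trap-only peaks on assembled chromosomes, and the other 5 lie on scaffolds. The largest family, family 1, held 1321 of them (32.1%, 30.7 to 33.6). It held 1499 of 9106 shared peaks (16.5%, 15.7 to 17.2) and 141 of 4864 wild-type-only peaks (2.90%, 2.45 to 3.41). The next family, which the Plcb4 sequence stands for, was most frequent in wild-type-only peaks. Family 2 held 98 gene-trap-only peaks (2.38%, 1.94 to 2.90), 184 shared peaks (2.02%) and 718 wild-type-only peaks (14.8%, 13.8 to 15.8). Smaller families together held 5.84% of gene-trap-only, 5.29% of shared and 4.81% of wild-type-only peaks. The remaining 2454 gene-trap-only peaks (59.7%, 58.2 to 61.2) shared fewer words than this limit with every other peak away from promoters, against 76.2% of shared and 77.5% of wild-type-only peaks.

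**Figure D1:**
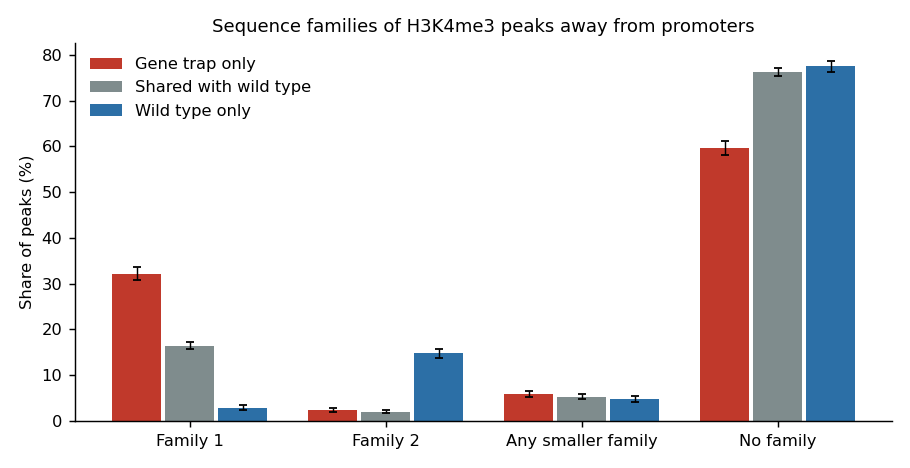
Share of H3K4me3 peaks away from promoters (vertical axis, %) in sequence family 1, in family 2, in any smaller family or in none. Red bars are gene-trap-only, grey bars shared and blue bars wild-type-only peaks; whiskers are exact 95% intervals over peaks. Family 1 holds 32.1% of the gene-trap-only and 2.90% of the wild-type-only peaks, and family 2 holds 2.38% and 14.8%.

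Seen from the families, 1321 of the 2820 gene-trap peaks of family 1 away from promoters were gene-trap-only (46.8%, 45.0 to 48.7), above the 31.1% of all such peaks. Among the 9395 gene-trap peaks in no family the share was 26.1% (25.2 to 27.02), and in family 2 it was 34.8% (29.2 to 40.6). The limit of 40 shared words sets these families. With 80 words family 1 held 23.2% of gene-trap-only, 12.3% of shared and 1.93% of wild-type-only peaks. With 120 words family 1 itself split into a pair of large families. They held 9.75% and 13.0% of gene-trap-only, 7.40% and 4.61% of shared, and 1.19% and 0.679% of wild-type-only peaks. With 20 words families 1 and 2 merged into one, which held 39.1%, 21.9% and 23.0%. These limits were chosen after the sequences had been seen.

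Family 1 is GC-rich, and its sequence recurs at a fixed spacing. Its gene-trap-only peaks had a median GC content of 62.4% and 5.20 CpG per 100 bp in the central 500 bp. That stretch was marked as repeat (soft-masked in the RefSeq assembly) over a median of 100% of its length. Within 1 kb of the peak centre, 1143 of the 1321 peaks (86.5%) repeated at least 10 words of 15 bases at 1 fixed spacing of 50 bp or more. The most frequent spacings were 212 bp (513 peaks) and 214 bp (287 peaks). In the wild-type-only peaks of family 2 the most frequent spacing was 208 bp (431 of 718 peaks). The assembly's masking does not name the type of repeat, and no repeat annotation was used here.

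The repeats exist in many copies, so reads from them have few unique places in the genome. Every word of 75 bases, the read length given in the labels, was counted in the assembled chromosomes on both strands. In the family 1 gene-trap-only peaks a median of 27.5% of the words in the central 500 bp occurred once, and the median word had 20 copies. The median word had 3 copies in the shared peaks of family 1 and 16 in the wild-type-only peaks of family 2. Over all gene-trap-only peaks, 758 of 4113 (18.4%, 17.3 to 19.7) had a median of 10 or more copies, against 7.14% of shared and 9.83% of wild-type-only peaks. How reads with several places were assigned is not given in the sources used here, and its part in these lists was not tested. In 2713 gene-trap-only peaks at least 80% of the words occurred once.

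Family 1 peaks were scattered over all chromosomes and mostly far from a protein-coding TSS. They lay on 21 chromosomes, from 14.1% of the gene-trap-only peaks of chromosome 11 (36 peaks) to 60.0% of those of chromosome X (66 peaks), apart from 4 of 6 on chromosome Y. Their median distance to a protein-coding TSS was 147 kb, 70.6% lay outside annotated genes and 28.6% in introns. For the shared peaks of family 1 these values were 119 kb, 71.5% and 28.1%. For the wild-type-only peaks of family 2 they were 139 kb, 69.6% and 29.5%. The genes nearest to most gene-trap-only peaks of family 1 were Phf3 (6 peaks) and Aga, Csmd3, Lingo2, Luzp2 and Slc10a2 (5 each). Not 1 of the 1321 overlapped a wild-type H3K27me3, MTF2 or EZH2 peak, a count of 0 that allows up to 0.227% when 3 counts are taken as the limit and 0.279% by the exact interval. Among the shared peaks of family 1, 7 overlapped H3K27me3, 3 MTF2 and 1 EZH2. Family 1 supplied 803 of the 1237 gene-trap-only peaks that were over 100 kb from a TSS, and 1319 of the 1663 that were mostly soft-masked.

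Gene-trap-only peaks were narrow. Their widths ran from 211 to 11402 bp with a median of 745 bp (quartiles 488 and 1099 bp), against 1128 bp for shared and 1100 bp for wild-type-only peaks. Only 270 (6.56%) were 2 kb or wider, against 20.9% of shared and 21.7% of wild-type-only peaks. In all they covered 3.92 Mb, and the shared peaks 13.9 Mb. The repeats were not the only narrow ones: the 2694 gene-trap-only peaks outside families 1 and 2 had a median of 736 bp against 1279 bp for the shared peaks outside them. A wide peak has more bases that can meet a wild-type peak, so width and the rule cannot be told apart.

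**Figure D2:**
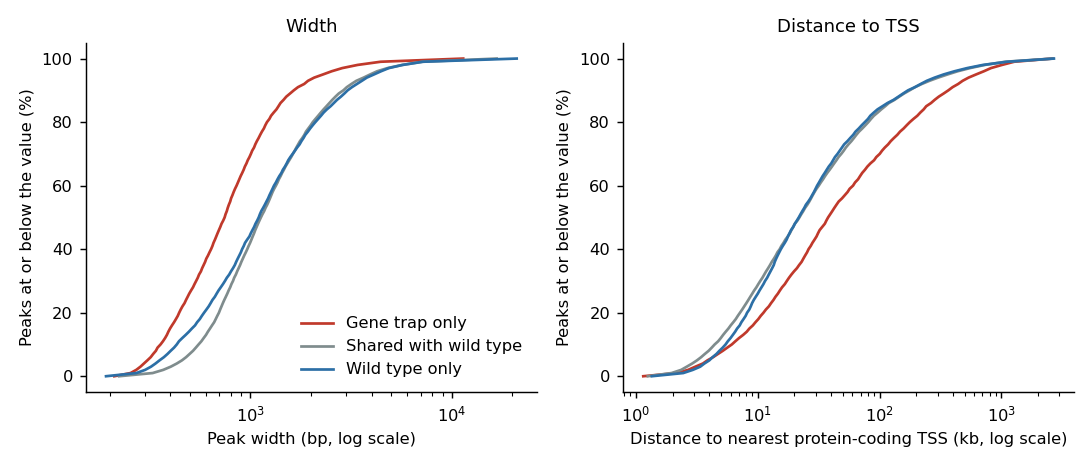
Cumulative share of peaks (vertical axes, %) by width in bp (left, log axis) and by distance of the midpoint from the nearest protein-coding TSS in kb (right, log axis), for gene-trap-only (red), shared (grey) and wild-type-only peaks (blue). The red curve lies to the left for width, with a median of 745 bp, and to the right for distance, with a median of 37.8 kb.

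The widest gene-trap-only peaks, 36 of 5 kb or more, were poor in CpG. Their medians were 1.20 CpG per 100 bp and 42.9% GC, and 23 of them were mostly soft-masked. The 248 shared peaks of this width were also poor in CpG, with medians of 1.4 CpG per 100 bp and 48.3% GC. None of the 36 gene-trap-only peaks was in family 1, while 13 of them formed a family of their own (family 8) on 10 chromosomes. That family had a median width of 6371 bp, 32.2% GC and 0.6 CpG per 100 bp, and held 7 shared and 2 wild-type-only peaks. One of the 13, of 6006 bp, lay 78.3 kb from Sox11, a neural transcription factor gene, and another of 9817 bp lay in an intron of Sh3bp4. The widest peak of all (11402 bp) lay in an intron of the genes Gm42047 (lincRNA) and Gm20388, 8.30 kb from the TSS of Klhdc4. The next was the 10539 bp peak in Wiz, which encodes a zinc-finger partner of the G9a and GLP methyltransferases. The peaks near Klhdc4, in Wiz and in Sh3bp4 each met the 1 kb window around the TSS of a gene that is not protein-coding. A peak of 8081 bp at 113 kb from Snx5 and one of 7441 bp in an intron of Nrp2, a receptor of semaphorins, had only words found once in their centres.

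By midpoint, 2334 gene-trap-only peaks lay outside genes (56.7%, 55.2 to 58.2), 1358 in introns (33.0%) and 426 in exons (10.3%). Outside genes lay 41.3% of shared and 28.2% of wild-type-only peaks, and in introns 39.2% and 61.3%. Coding exons held 193 gene-trap-only peaks (4.69%). Leaving out families 1 and 2, the share outside genes was 49.4% for gene-trap-only, 34.4% for shared and 19.4% for wild-type-only peaks, so the order was the same. The window of 1 kb around the TSS of a gene that is not protein-coding touched 373 gene-trap-only peaks (9.06%), against 14.8% of shared and 6.31% of wild-type-only peaks. These were most often processed pseudogenes (137 peaks) and lincRNA genes (110 peaks).

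**Figure D3:**
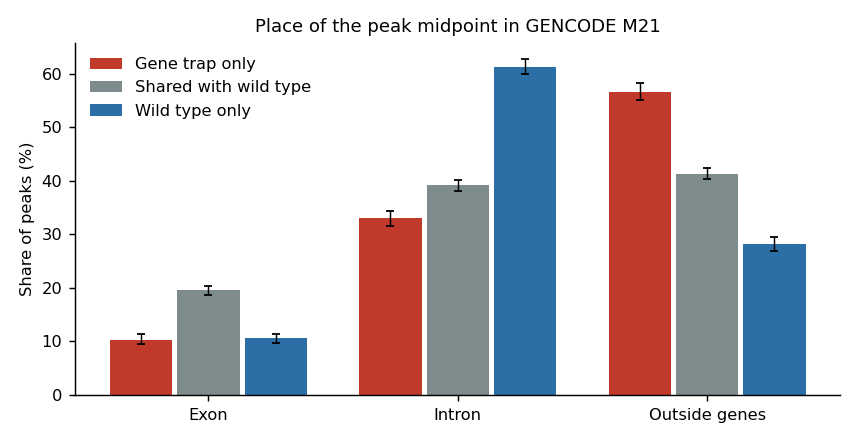
Share of peaks (vertical axis, %) whose midpoint lies in an exon, in an intron or outside the genes of GENCODE M21, for gene-trap-only (red), shared (grey) and wild-type-only peaks (blue), with exact 95% intervals over peaks. Gene-trap-only peaks lie outside genes in 56.7% of cases and wild-type-only peaks in 28.2%.

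The median distance from a gene-trap-only peak to a protein-coding TSS was 37.8 kb, against 22.0 kb for shared and 21.7 kb for wild-type-only peaks. Without families 1 and 2 the medians were 24.1, 16.7 and 17.2 kb. There were 315 peaks 1 to 5 kb from a TSS, 1049 at 5 to 20 kb, 1512 at 20 to 100 kb, 960 at 100 to 500 kb and 277 farther. Of the 4113 peaks with a nearest TSS, 2059 lay upstream of it. The nearest wild-type H3K4me3 peak was a median of 30.3 kb away, and it was closer than 1 kb for 41 peaks.

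The edges of the rule were as follows. The gene-trap-only peaks closest to a wild-type H3K4me3 peak lay 188 bp from it in an intron of Scaf8, 502 bp near Dmrta2 and 635 bp near Smbd1. Those closest to a promoter window lay 7 bp from it at Armc12, 9 bp at Syt8 and 16 bp at Olfr294. Just outside the rule, the gene-trap peaks with least overlap shared 114 bp with a wild-type peak near Ywhaq, 175 bp near Cblc and 192 bp near Ndufa4. Of the gene-trap peaks without a wild-type peak that were left out for meeting a promoter window, those that reached least into it did so by 25 bp at Ccl25, 67 bp at Tbx4 and 84 bp at Ppargc1a.

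Few gene-trap-only peaks lay where PRC2 is found in wild-type cells. Of the 4118, 292 overlapped a wild-type H3K27me3 peak (7.09%, 6.33 to 7.92), against 21.4% of shared and 2.14% of wild-type-only peaks. MTF2 overlapped 148 (3.59%, 3.05 to 4.21), against 16.0% and 0.719%. EZH2 overlapped 153 (3.72%, 3.16 to 4.34), against 17.0% and 0.802%. All 3 overlapped 123 peaks, and 3813 met none of them. The gene-trap-only peaks thus lay between the other kinds for each of these lists. Over widths, the H3K27me3 share was 6.11% under 500 bp, 7.56% from 500 bp to 1 kb, 7.34% from 1 to 2 kb and 7.04% above. In shared peaks of these widths it was 9.60%, 18.7%, 27.4% and 19.3%. In the same order of widths, MTF2 overlapped 2.22%, 3.36%, 5.10% and 5.19% of gene-trap-only peaks, and EZH2 2.68%, 3.75%, 4.38% and 5.19%.

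Leaving out the repeats raised the shares and kept the order. Outside families 1 and 2, H3K27me3 overlapped 292 of 2694 gene-trap-only peaks (10.8%, 9.69 to 12.1), 26.1% of shared and 2.52% of wild-type-only peaks. For MTF2 the shares were 5.49%, 19.6% and 0.874%. The marks differed with sequence content. Of the 266 gene-trap-only peaks that were rich in CpG and mostly not repeat, 97 lay in H3K27me3 (36.5%, 30.7 to 42.6) and 63 had MTF2 (23.7%, 18.7 to 29.3). Rich in CpG here means at least 50% GC with observed over expected CpG of at least 0.6 in the central 500 bp. Of the 347 that were as rich in CpG but mostly repeat, none lay in H3K27me3 and 1 had MTF2. Family 1, which is not left out of this count, supplied 315 of these 347. In the shared peaks that were rich in CpG and not repeat, H3K27me3 overlapped 59.6% and MTF2 52.1%. That kind made up 6.47% of gene-trap-only and 21.2% of shared peaks.

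**Figure D4:**
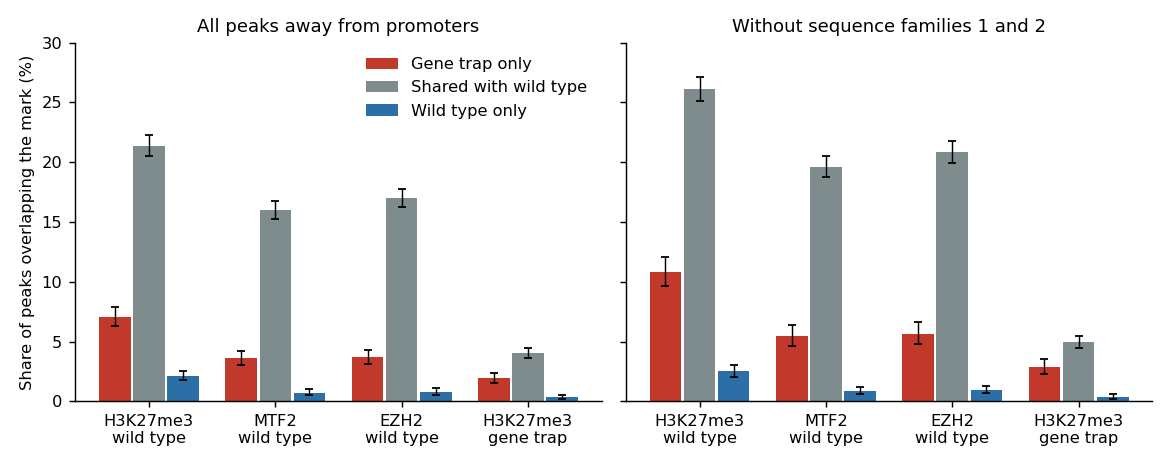
Share of peaks away from promoters (vertical axes, %) that overlap by at least 1 bp a wild-type H3K27me3, MTF2 or EZH2 peak or a gene-trap H3K27me3 peak, for all peaks (left) and without sequence families 1 and 2 (right). Red, grey and blue bars are gene-trap-only, shared and wild-type-only peaks, with exact 95% intervals over peaks. In each group of wild-type bars the gene-trap-only share lies between the others, for H3K27me3 at 7.09% in the left and 10.8% in the right panel.

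The 292 peaks in H3K27me3 lay in 270 wild-type domains, and 231 lay entirely inside one. Of these domains 116 (43.0%) had any wild-type H3K4me3 peak, against 85.9% of all 6294 domains, but nothing is read from this, since the rule used the wild-type H3K4me3 list. A gene-trap H3K27me3 peak was left in 79 of the 270 (29.3%), against 11.1% of all domains. The 270 domains were wider, with a median of 4470 bp against 3631 bp, and a wide domain has more room for any peak. Counted by peak, 74 of the 292 overlapped gene-trap H3K27me3 (25.3%, 20.5 to 30.7). For shared peaks in H3K27me3 that share was 18.9%.

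Within H3K27me3, the peaks with and without MTF2 differed in several ways. The 137 with MTF2 had a median width of 862 bp, lay a median of 8.03 kb from a TSS and 3.78 kb from the nearest wild-type H3K4me3 peak. Of these 137, 123 overlapped EZH2 and 71 a gene-trap H3K27me3 peak. The 155 without MTF2 had a median width of 684 bp and lay 15.2 kb from a TSS and 9.44 kb from a wild-type H3K4me3 peak. Of these 155, 21 overlapped EZH2 and 3 a gene-trap H3K27me3 peak. The 3815 gene-trap-only peaks with neither mark lay 40.6 kb from a TSS. Shared peaks in H3K27me3 differed in the same direction. The 1394 with MTF2 had a median width of 1323 bp and lay 12.2 kb from a TSS. Of these 1394, 1344 overlapped EZH2 and 364 a gene-trap H3K27me3 peak. The 554 without MTF2 had a median width of 1003 bp and lay 13.2 kb from a TSS. Of these 554, 113 overlapped EZH2 and 5 a gene-trap H3K27me3 peak.

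The domain with most gene-trap-only peaks was that of Hand2, a helix-loop-helix regulator of heart and limb, on chr8:57309880-57355834. It spanned 45955 bp in wild-type cells, and gene-trap H3K27me3 still covered 41326 bp of it. Its gene-trap-only peaks were 399, 1665, 2079 and 605 bp wide, at 13.7, 17.9, 22.7 and 38.9 kb from the start of the domain. The Hand2 TSS lies at 11.1 kb, in a shared peak that was 1624 bp wide in wild-type and 2634 bp in gene-trap cells. The 3 nearest to it lay on MTF2 and EZH2 peaks of wild-type cells, and the farthest on none.

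**Figure D5:**
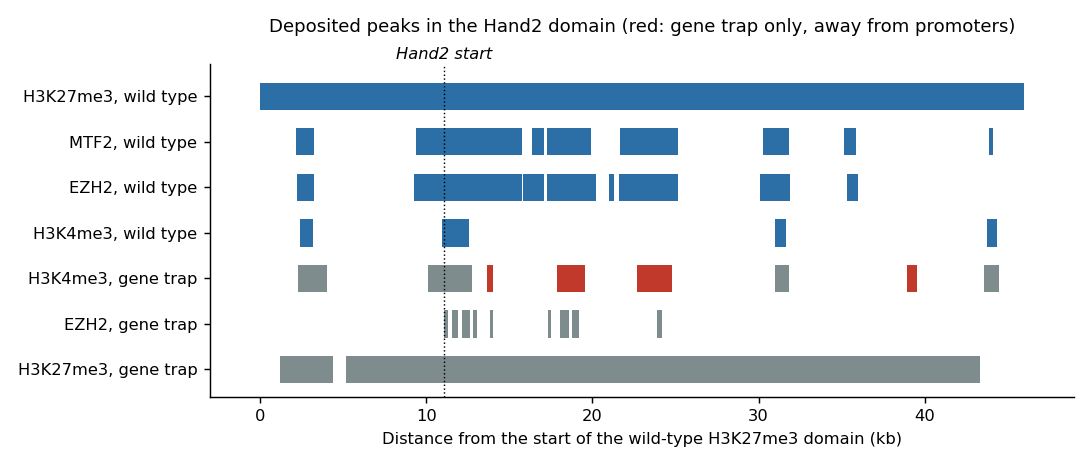
Deposited peaks of the 7 lists in the Hand2 H3K27me3 domain, by distance from the start of that domain in kb (horizontal axis), 1 row per list. Blue blocks are wild-type peaks, grey blocks gene-trap peaks and red blocks the 4 gene-trap-only H3K4me3 peaks away from promoters; the dotted line is the Hand2 start. The first red block starts at 13.7 kb and the last at 38.9 kb, inside the gene-trap H3K27me3 block that ends at 43.3 kb.

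Another 3 domains held 3 gene-trap-only peaks each: those of Nkx2-3, a homeobox gene of spleen and gut, of En1, which patterns the midbrain and hindbrain, and of Emx2, which patterns the cortex. They spanned 27450, 26973 and 24175 bp. In all, 20 domains held at least 2. Several of the other wide peaks with MTF2 lay by regulators of development, while one of 2612 bp was nearest to Xlr, which is not on the lists of such regulators. They were 4053 bp wide at 5.44 kb from Mnx1, a motor neuron gene, 3525 bp in an intron of Pax6, an eye and forebrain gene, and 3109 bp at Osr1. At Twist1, a mesoderm regulator, the peak was 2428 bp wide, and near Cdkn2a, a cell cycle inhibitor gene, 2530 bp. Those at Mnx1, Pax6, Osr1 and Cdkn2a also overlapped gene-trap H3K27me3, and that at Twist1 did not.

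One of the widest peaks with MTF2 lay far from protein-coding genes. The peak of 5710 bp in an exon of Gm26917 had 13.6 CpG per 100 bp. It lay in wild-type H3K27me3, MTF2 and EZH2 and in gene-trap EZH2. The words in its centre were found once in the assembled chromosomes, but that count misses any copies left out of the assembly. Whether reads from such copies contributed to these overlaps was not tested.

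Among the widest peaks in H3K27me3 without MTF2, that near H2afy, which encodes the histone variant macroH2A1, was 3850 bp wide and 33.7% covered. Coverage by H3K27me3 varied among these peaks, from 11.7% near Wnt11, a signalling ligand gene, to 100% near Robo1, an axon guidance receptor gene, near Colgalt1 and near Prrx1, a mesenchyme regulator.

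Most nearest genes had few of these peaks. The gene-trap-only peaks had 3053 nearest protein-coding genes, of which 2344 had 1 peak and 85 had 4 or more. The nearest gene had wild-type H3K27me3 at its promoter for 32.9% of gene-trap-only peaks (31.5 to 34.4), for 31.8% of shared and for 19.4% of wild-type-only peaks. It had wild-type H3K4me3 for 74.2%, 79.7% and 86.1%. Hand2 was nearest to 7 gene-trap-only and 4 shared peaks and to no wild-type-only peak. Cts3, one of a cluster of placental cathepsins, was nearest to 7 gene-trap-only peaks and to none of the other kinds. Snrpn, an imprinted gene, was nearest to 6, of which 4 were in family 1, and Sox11 to 6. Nearest here can be far. These gene-trap-only peaks lay 2.75 to 378 kb from Hand2 and 15.5 to 270 kb from Cts3. They lay 15.8 to 1043 kb from Snrpn and 47.2 to 561 kb from Sox11. Predicted gene Gm21863 was nearest to 8 gene-trap-only peaks, and 13 peaks around it and its neighbours on chromosome 12 formed a small sequence family with 22 shared peaks.

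In all, 13 gene lists were used to describe the nearest genes, with 567 genes in the annotation. Of the gene-trap-only peaks 268 (6.51%) were nearest to a listed gene, against 6.58% of all gene-trap peaks away from promoters. Neural regulators were nearest to 79 (1.92% against 2.03%) and mesoderm and heart regulators to 26 (0.631% against 0.680%). These shares are near those of the background. Of the 79, 37 lay in wild-type H3K27me3 and 34 had MTF2, and of the 26, 13 and 10. Family 1 held 20 of the 79 and 8 of the 26. The H3K27me3 and MTF2 counts by list are not given here for other peaks, so they are no contrast between the kinds of peak. Signalling ligands and inhibitors had 21 peaks (0.51% against 0.597%, 8 in H3K27me3), and endoderm and extraembryonic regulators 16 (0.389% against 0.416%, 5 in H3K27me3). Pluripotency genes had 19 (0.461% against 0.522%, 2 in H3K27me3) and imprinted genes 13 (0.316% against 0.25%, 1 in H3K27me3). PRC1 and PRC2 genes had 10 (0.243% against 0.386%, 2 in H3K27me3) and germline and 2-cell genes 6 (0.146% against 0.159%, 1 in H3K27me3).

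Hox cluster genes were nearest to 7 gene-trap-only peaks (0.17% against 0.31% of all gene-trap peaks away from promoters). Of these, 6 lay in or within 10 kb of a cluster and in wild-type H3K27me3. They were 1171 bp wide near Hoxa2, 537 bp near Evx1, 521 bp in Hoxb3, 506 bp near Hoxd10, 446 bp near Hoxb4 and 246 bp at Hoxd3. All but that at Hoxd3 overlapped wild-type MTF2 and EZH2 and gene-trap H3K27me3. The 7th, of 716 bp, had Evx1 as nearest gene but lay 125 kb from any wild-type H3K4me3 peak and met none of these lists.

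Other lists had no peak in H3K27me3. Neuronal channels and receptors were nearest to 40 gene-trap-only peaks (0.971% against 0.696% of all gene-trap peaks away from promoters), and 31 of these were in family 1. Examples are a peak of 1431 bp in an intron of the potassium channel gene Kcnma1 and one of 1383 bp in an intron of the receptor gene Lrp1b. Outside families 1 and 2 the list had 7 peaks (0.259%). Extracellular matrix and adhesion genes had 22 (0.534% against 0.348%), of which 9 were in family 1, such as a peak of 1740 bp at 408 kb from Tnc. Without the families Epcam, an adhesion gene of epithelia and stem cells, had the widest (2739 bp). Housekeeping genes had 7 (0.17% against 0.144%), and genes of H3K4 and CpG methylation 6 (0.146% against 0.204%). No gene-trap-only peak lay in or within 10 kb of Mtf2.

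Near genes of the pluripotent state, 4 of the 19 peaks were in family 1 and the others outside families 1 and 2. A peak of 3416 bp lay 59.7 kb from Klf4, with 0.6 CpG per 100 bp, and ended 1.32 kb from a wild-type H3K4me3 peak. One of 2090 bp lay 14.96 kb from Pou5f1, which encodes OCT4, and one of 905 bp lay 145 kb from Sox2. None of the 3 overlapped H3K27me3, and all had only 75-base words found once in their centres.

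Gene-trap-only peaks were mostly alone. The next one was a median of 143 kb away, and 339 (8.23%) had another within 10 kb. Shared and wild-type-only peaks had another of their own kind within 10 kb in 26.5% and 25.3% of cases. The wild-type-only set is of similar size, so its share is the closer comparison. The 339 formed 145 pairs, 15 runs of 3 and 1 run of 4. The run of 4 spanned 20.3 kb on chr12:72726085-72746332, near Ppm1a, and met no H3K27me3. Joined within 50 kb, 2 runs held 8 peaks each, and neither overlapped H3K27me3. The longer spanned 193 kb near Zfp236 and Zfp516. The other, around Olig1 and Olig2, regulators of oligodendrocytes and motor neurons, spanned 141 kb with peaks of 404 to 4130 bp. Of the runs of 3, those at En1, Nkx2-3 and Hand2 lay in H3K27me3 with MTF2. Within family 1, 1.67% of peaks had another gene-trap-only peak within 10 kb, and outside families 1 and 2 11.7% did. The nearest gene-trap H3K4me3 peak of any kind was a promoter peak for 40.2%, a shared peak for 32.5% and another gene-trap-only peak for 27.3%.

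CpG content lay between that of the other kinds. The central 500 bp of gene-trap-only peaks had a median of 3.4 CpG per 100 bp, against 3.8 in shared and 2.0 in wild-type-only peaks. GC content was 55.8%, 57.2% and 51.6%. At least 50% of that stretch was soft-masked in 1663 gene-trap-only peaks (40.4%, 38.9 to 42.0), against 22.5% and 24.5%. Outside families 1 and 2, the median CpG density was 2.8, 3.4 and 1.8 per 100 bp, and 9.13%, 4.94% and 8.32% were mostly soft-masked.

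Short motifs were searched in the central 500 bp on both strands, as letters only. The GC box GGGCGG was found in 44.5% of gene-trap-only, 44.4% of shared and 17.9% of wild-type-only peaks, and the CG repeat GCGCGC in 5.40%, 11.7% and 2.34%. The octamer ATTTGCAT, bound by OCT4 and its relatives, was found in 1.92%, 2.12% and 2.39%. The E-box CACGTG was found in 7.85%, 9.60% and 9.81%.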

How the data were processed

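ChIP-seq peak lists from wild-type E14 and Mtf2 gene-trap stem cells were used. The series has 22 samples, and 14 libraries stand behind the 7 lists analysed here. Kapa reagents and a NextSeq instrument were used, with a read length of 75, per the labels. Tools named in the submitters' processing notes, without roles or order, are MACS2 2.7, BWA 0.7.10-r789 and CASAVA, with mm10 (GRCm38) as build. MAnorm and unbiased are words found in list names and nowhere else in the labels. Threshold, control, treatment of reads with several places and the way libraries were combined are not given in the sources used here. In the lists deposited by the authors the values are chromosome, start and end in bp, with no count, score or p-value, and depth is unknown.

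Overlaps of at least 1 bp, distances, GENCODE M21 basic annotation (21827 protein-coding genes) and GRCm38 sequence features were computed with Python 3.11.15, pandas 2.3.3, scipy 1.17.1 and pysam 0.24.0, and checked on simulated data. No test was made, since each group has 1 list. Named regions were the widest of all, with MTF2, in H3K27me3 without MTF2 and per gene list, passing over predicted genes, the largest runs, and all peaks near Hox clusters. A list with at most 8 peaks was described in full, and otherwise from its 5 widest. The members, the gene lists and the comparisons were chosen with earlier results of these data known. The counting of 75-base words, the sequence families, the runs joined within 50 kb and the genes with most peaks were chosen after the data had been seen. So were the sequences named for Cdh19, Zfp114, Plcb4 and Osr1. Dub1 and Dux of the lists were not found in the annotation. Some regions that the rule selects are not reported here.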

Additional observations from a re-analysis of the deposited data

How the results depend on the processing

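No paired analysis was possible because each group has 1 deposited list for both of its libraries, and for the same reason no library could be left out. With only the peaks in which at least 80% of the 75-base words occurred once (an alternative chosen after seeing the data), 2713 gene-trap-only peaks were left. Their median width was 690 bp, the median TSS distance 25.2 kb and the median CpG density 2.8 per 100 bp. Outside genes lay 51.5%, 10.3% had another within 10 kb, 10.4% overlapped wild-type H3K27me3, 5.01% MTF2, 5.27% EZH2 and 2.80% gene-trap H3K27me3. The same limit gave 25.5% of shared and 2.42% of wild-type-only peaks in H3K27me3. With peaks of at least 500 bp the median width was 896 bp, CpG density 3.6 per 100 bp and 7.21% had another within 10 kb. With promoters of all annotated genes left out, 59.2% lay outside genes and 7.00% had another within 10 kb. Within 50 kb, 26.5% had another. Over whole peaks the CpG density was 3.32 per 100 bp. With at least 50% of the peak covered, 2.89% had MTF2 and 2.91% EZH2, and by midpoint 3.08% had EZH2. Within 50 kb of a TSS, 5.61% were nearest to a listed gene. The other 45 values stayed within the 95% interval, or within 1.5 times the number, of the main value. The lists hold no scores, so a stricter threshold could not be tried.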

Other observations

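Some values stand outside the comparisons above. Family 3, with a median GC content of 47.4% in its 34 gene-trap-only peaks, also held 105 shared and 100 wild-type-only peaks. Its median width was 1174 bp in gene-trap-only, 2476 bp in shared and 1792 bp in wild-type-only peaks. Of its gene-trap-only peaks 82.4% lay outside genes, and of its wild-type-only peaks 9.0% did. Among autosomes, the number of gene-trap-only peaks per 100 shared peaks ran from 33.8 on chromosome 2 to 61.0 on chromosome 1. A set of 11 gene-trap-only peaks had wild-type MTF2 without H3K27me3, and 1 of them, of 1501 bp at 77.8 kb from Ezh2, had 9.2 CpG per 100 bp and a median of 8 copies per 75-base word.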
